A study of Mus musculus with 10 samples.

Results

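Mast cells are tissue-resident immune cells that store histamine and proteases in granules and release them when their receptors are engaged. The mast cells of connective tissue, including the outer coat of blood vessels, are known in mice for carboxypeptidase A3 (Cpa3), the chymases Mcpt4 and Cma1 and the tryptase Tpsb2, which are packed with heparin in the granules. They depend on the receptor Kit, and are armed through the high-affinity IgE receptor, whose alpha chain Fcer1a binds the antibody and whose beta chain Ms4a2 amplifies the signal. Hdc, histidine decarboxylase, makes histamine from histidine, and is also made by basophils and some myeloid cells. These 8 genes were described here in the outflow vein of an arteriovenous fistula. They were taken by name from a deposited table of 43346 genes, and 7 of the 8 were among the 17859 genes with enough reads to be tested, Ms4a2 being the exception. All 8 had reads in every library, the fewest being 1 read for Fcer1a and Ms4a2.

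Each library held bulk RNA of the outflow vein 7 days after a fistula was made between carotid artery and jugular vein. All animals were mice labelled strain C57 with a human CX3CR1 knock-in (CX3CR1 is the receptor of the chemokine fractalkine, Cx3cl1) and had been given chronic kidney disease 28 days before the fistula. The antibody group (5 libraries) received 30 mg/kg of antibody into the peritoneum 2 times per week. The vehicle group (5 libraries) received an equal volume without antibody. The protocol text describes an antibody to human CX3CR1 whereas the title speaks of a fractalkine antibody, and the labels do not settle which it was. The sources used here give neither sex nor age. Whether libraries stem from separate animals is not stated in the labels, so the p-values measure the spread between these libraries. Every library of both groups carried the fistula, the kidney disease and the knock-in alike.

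Totals ran between 4282872 reads (antibody replicate 3) and 34271554 reads (vehicle replicate 4), and 3 reads, taken as the limit of what a count of 0 allows, corresponded to 0.700 CPM in antibody replicate 3 and 0.0875 CPM in vehicle replicate 4. Levels below are scaled RPKM: the deposited reads per kilobase of gene and per library total, divided by a composition factor of each library. The factors lay between 0.841 and 1.13. The row named Cx3cr1 read 2.74 to 4.37 scaled RPKM in antibody libraries and 1.28 to 4.55 in vehicle libraries, and the sources used here do not say which species' sequence it counted. Skeletal muscle markers summed to between 305 and 3378 scaled RPKM in antibody libraries and to between 548 and 6097 in vehicle libraries, and kidney markers to between 3.21 and 62.6 against between 5.52 and 57.9. The part of these differences in the results was not tested.

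RefSeq promoter windows of the GRCm38.p6 build (250 bases before to 50 bases after a gene's start, 300 in all) were at hand for 7 of the 8 genes, Tpsb2 having none. The windows of 3 granule protease genes, whose levels moved together across libraries, and that of Hdc, which was highest in other libraries, are printed 5′ to 3′ on the gene's strand. Capitals mark AGATAA or TGATAA, letters of the kind that GATA factors bind, and TATAAA, the letters of a TATA box, each searched on both strands.

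Cpa3, chr3:20242132-20242431, minus strand: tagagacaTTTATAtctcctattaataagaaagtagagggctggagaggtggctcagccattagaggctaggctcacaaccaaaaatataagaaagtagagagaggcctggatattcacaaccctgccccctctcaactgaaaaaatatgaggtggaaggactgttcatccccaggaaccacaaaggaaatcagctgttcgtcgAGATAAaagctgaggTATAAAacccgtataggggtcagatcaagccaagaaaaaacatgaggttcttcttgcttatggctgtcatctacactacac

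Mcpt4, chr14:56062261-56062560, minus strand: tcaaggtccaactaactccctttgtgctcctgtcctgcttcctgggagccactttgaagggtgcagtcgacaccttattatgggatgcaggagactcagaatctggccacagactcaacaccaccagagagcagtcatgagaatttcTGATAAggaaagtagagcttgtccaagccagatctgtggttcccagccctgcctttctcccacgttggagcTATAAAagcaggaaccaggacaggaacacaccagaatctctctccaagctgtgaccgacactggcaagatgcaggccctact

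Cma1, chr14:55944626-55944925, minus strand: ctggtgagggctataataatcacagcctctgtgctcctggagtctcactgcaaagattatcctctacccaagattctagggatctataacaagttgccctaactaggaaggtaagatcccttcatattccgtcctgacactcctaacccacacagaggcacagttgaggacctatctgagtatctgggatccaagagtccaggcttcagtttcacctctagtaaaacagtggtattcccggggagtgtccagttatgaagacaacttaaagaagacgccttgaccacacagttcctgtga

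Hdc, chr2:126618629-126618928, minus strand: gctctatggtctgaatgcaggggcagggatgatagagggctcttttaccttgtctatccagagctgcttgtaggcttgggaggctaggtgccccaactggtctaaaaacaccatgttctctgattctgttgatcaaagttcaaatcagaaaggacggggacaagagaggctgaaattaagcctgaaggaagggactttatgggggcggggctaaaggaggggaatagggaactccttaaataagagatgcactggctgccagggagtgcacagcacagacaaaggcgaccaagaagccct

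In the Cpa3 window AGATAA lay 46 bases and TATAAA 31 bases upstream of the start, and a further TATAAA lay on the opposite strand 242 bases upstream. The Mcpt4 window held TGATAA 103 bases and TATAAA 32 bases upstream. The windows of Cma1, Hdc and Kit held none of these letters. The Hdc window lay wholly inside the deposited Hdc gene, which reaches to 126619299, so the letters at that end of the counted gene were not searched. Fcer1a had AGATAA on the opposite strand 92 bases and TATAAA 125 bases upstream, and Ms4a2 had 3 copies of AGATAA. Either of the GATA-type motifs was thus in the windows of 4 of 7 members, and in 18.6% of all 32851 windows of the same length, and TATAAA was in the windows of 3 of 7 members and in 13.6% of all windows. The matches describe the letters only. The protease genes that moved together thus did not share these exact letters: Cma1 had none where Cpa3 and Mcpt4 had both. Other letters holding GATA were not searched, among them AGATAG on the opposite strand of the Cma1 window and TGATAG in that of Hdc.

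None of the 7 tested members was called between antibody and vehicle veins. The 4 granule protease genes had lower means in antibody veins, by 1.37- to 1.48-fold on the fitted scale, while Hdc had a higher mean and those of Kit were close. None of these differences exceeded the spread between libraries. The test was limma, fitted with a variance trend to the values log2(scaled RPKM + 0.5) of all 17859 genes and adjusted by Benjamini-Hochberg, and a gene was called at an adjusted p below 0.05. It called 0 of 7 members, where it called 0% of all genes, and limma-voom on recovered reads called 0 genes with and without quality weights. At an unadjusted p below 0.05 it passed 0 of 7 members, against 6.53% of all genes (1166), and 2.98% of all genes passed it on the lower side. The values of the groups overlapped in all 7 tested members, and full separation was found for 0 of 7, against 1.11% of all genes. The smallest adjusted p of a member was 0.758, for Hdc, and the smallest of any gene was 0.739. Of the 7 members 4 lay lower and 3 higher in antibody veins, with a median log2 difference of -0.45, beside a median of -0.01 over all genes, 51.2% of which lay lower. No difference was called, and in bulk RNA a lower mean cannot tell fewer mast cells from less RNA per mast cell. The part of RNA of other cells was not tested.

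**Figure D1:**
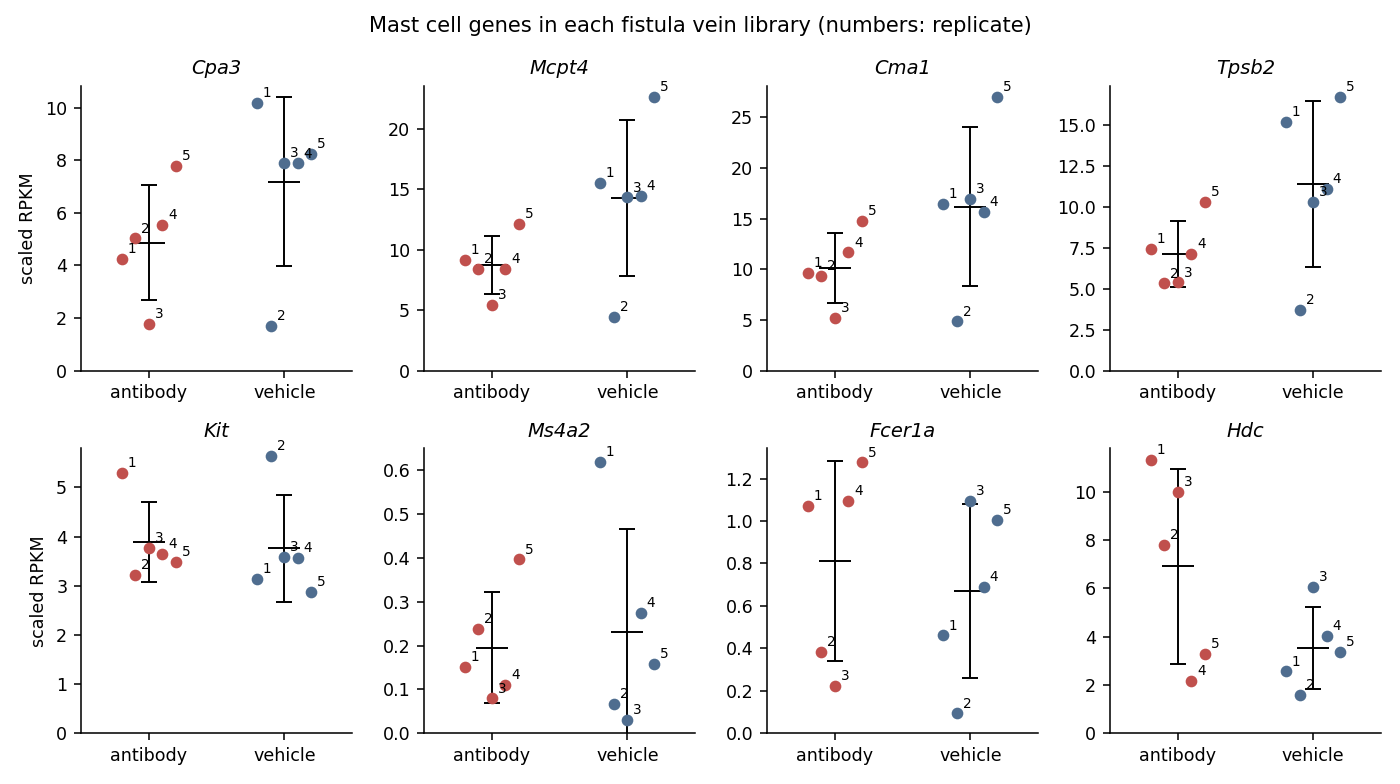
Scaled RPKM of the 8 mast cell genes, 1 panel a gene on a linear axis from 0, with antibody libraries left of vehicle libraries, points for libraries numbered by replicate, and a line with a bar for the group mean and SD. Vehicle replicate 2 lies below the other 4 vehicle libraries for Cpa3, Mcpt4, Cma1 and Tpsb2 and above them for Kit, and the groups overlap for every gene.

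Cpa3 (ENSMUSG00000001865, chromosome 3, 20215620 to 20242181, mm10) encodes the carboxypeptidase of the granule. It read 4.23, 5.03, 1.77, 5.55 and 7.77 scaled RPKM in antibody replicates 1 to 5, against 10.2, 1.69, 7.91, 7.88 and 8.24 in vehicle replicates 1 to 5. Vehicle replicate 2 was the lowest library of all, next to antibody replicate 3, and the other 4 vehicle libraries lay above every antibody library. Means were 4.87 ± 2.17 in antibody and 7.18 ± 3.21 in vehicle libraries (SD, n = 5 each). The log2 difference was -0.45 (SE 0.45, limma adjusted p = 0.821), with a 95% interval between 0.363- and 1.46-fold, and an exact two-sided permutation test gave p = 0.405. Antibody replicate 3 rested on 12 reads and vehicle replicate 2 on 55.

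Mcpt4 (ENSMUSG00000061068, chromosome 14, 56059744 to 56062310), the chymase of connective tissue mast cells in mice, read 9.19, 8.38, 5.42, 8.40 and 12.1 scaled RPKM in antibody libraries, against 15.5, 4.47, 14.3, 14.4 and 22.6 in vehicle libraries. The pattern was that of Cpa3: vehicle replicate 2 was lowest, and the other vehicle libraries exceeded every antibody library. Means were 8.71 ± 2.40 in antibody and 14.3 ± 6.48 in vehicle libraries (SD, n = 5 each). The log2 difference was -0.57 (SE 0.36), with an interval between 0.387- and 1.18-fold, at a limma adjusted p of 0.771 and an exact permutation p of 0.206. Cma1 (ENSMUSG00000022225, chromosome 14, 55941453 to 55944661), a further chymase, read 9.67, 9.33, 5.21, 11.7 and 14.8 in antibody libraries, against 16.5, 4.86, 17.0, 15.7 and 27.0 in vehicle libraries. Vehicle replicate 2 was again the lowest and antibody replicate 3 the next. Cma1 averaged 10.1 ± 3.49 in antibody and 16.2 ± 7.85 scaled RPKM in vehicle libraries (SD, n = 5 each), and differed by -0.55 on the log2 scale (SE 0.40), with p = 0.286 by exact permutation and p = 0.781 by limma after adjustment. Of the 50-base stretches of the Mcpt4 transcripts 5.48% recurred in Cma2 or Mcpt9, and of those of Cma1 5.38% recurred in the predicted gene Gm48934. Reads from such stretches could have been counted to either gene, and their share was not measured.

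Tpsb2 (ENSMUSG00000033825, chromosome 17, 25366550 to 25368094), the tryptase, read 7.42, 5.32, 5.38, 7.12 and 10.3 scaled RPKM in antibody libraries, against 15.2, 3.70, 10.3, 11.1 and 16.7 in vehicle libraries. Vehicle replicate 2 was once more the lowest library, and antibody replicate 5 lay just above vehicle replicate 3. Means were 7.11 ± 2.03 in antibody and 11.4 ± 5.08 in vehicle libraries (SD, n = 5 each), which differ by -0.53 on the log2 scale (SE 0.35), with p = 0.190 by exact permutation and p = 0.771 by limma after adjustment. Tpsab1, the gene of the other mast cell tryptase, which C57BL/6 mice are known not to make as protein, averaged 0.270 ± 0.201 scaled RPKM in antibody and 0.496 ± 0.308 in vehicle libraries, from 132 reads in all. The label C57 names no substrain.

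The overlap of the groups in Cpa3, Mcpt4 and Cma1 came from vehicle replicate 2. Without that library, an alternative whose group overlap was examined after seeing the data, the log2 differences were -0.86 (SE 0.32) for Cpa3, -0.92 (SE 0.22) for Mcpt4, -0.91 (SE 0.27) for Cma1 and -0.87 (SE 0.21) for Tpsb2. The antibody libraries then lay wholly below the vehicle libraries in 3 of 7 tested members, where this held for 1.01% of all genes, against 0 of 7 members and 0.448% of genes with all libraries. The library was left out because it made the groups overlap. This count, the larger differences and their smaller SEs thus follow from the choice and are a description only. The limma adjusted p stayed at 0.661 for all 4, and no gene of the table was called. Vehicle replicate 2 held 20916617 reads, the third deepest of the libraries, and its protease levels rested on 55 to 112 reads a gene.

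**Figure D2:**
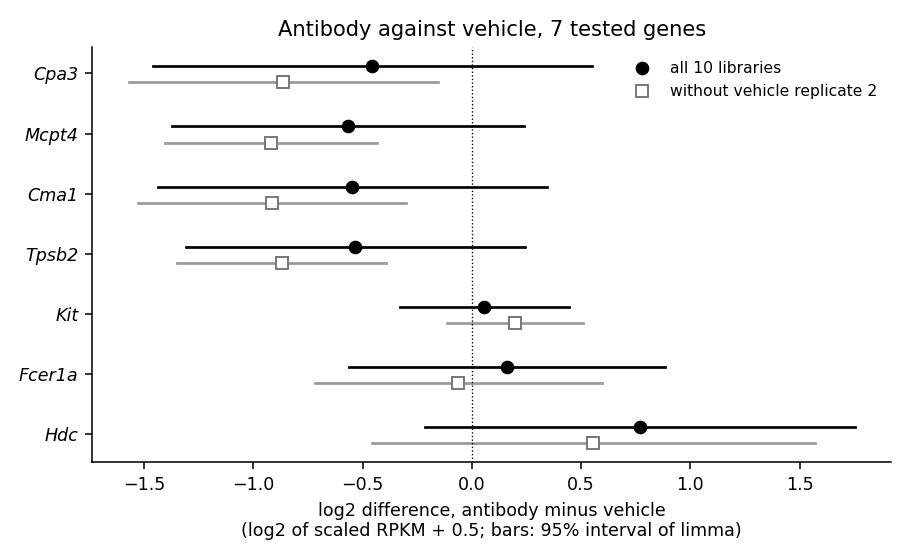
Log2 differences, antibody minus vehicle, of the 7 tested members with 95% intervals, with all libraries and without vehicle replicate 2. Every interval spans 0 with all libraries. Those of Cpa3, Mcpt4, Cma1 and Tpsb2 lie below 0 without that library, which follows from leaving out the library that made the groups overlap. The intervals are not adjusted for the number of genes, and the limma adjusted p without that library was 0.661 for each of these genes.

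Leaving out each library in turn kept the protease differences below 0. For Mcpt4 they lay between -0.92 without vehicle replicate 2 and -0.36 without vehicle replicate 5. For Cpa3 they lay between -0.86 without vehicle replicate 2 and -0.17 without antibody replicate 3. The size of the difference thus depended on single libraries in both groups, and the limma adjusted p of Mcpt4 lay between 0.641 and 0.941 over all alternatives.

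**Figure D3:**
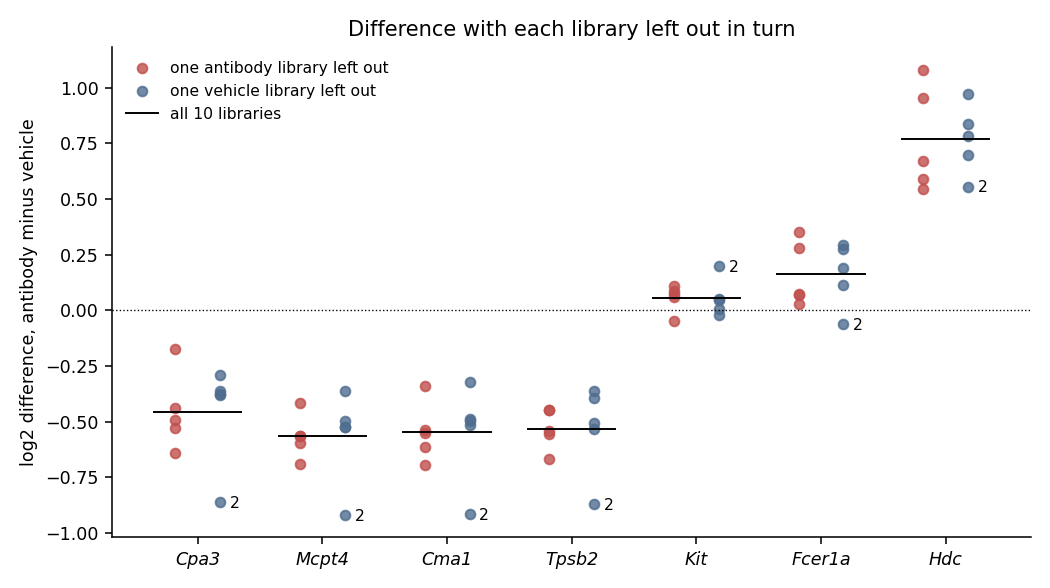
Log2 difference, antibody minus vehicle, of each tested member when 1 library is left out, 1 point a left-out library. The proteases stay below 0 and Hdc above 0 for every library left out, whereas Kit and Fcer1a fall on both sides of 0.

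Across the 10 libraries the 4 protease genes moved together. Mcpt4 and Cma1 correlated at Pearson r = 0.98 and Spearman rho = 0.95 (permutation p = 2e-05 and 7e-05, adjusted over 28 pairs of members 0.00042 and 0.00084). Without the 2 libraries farthest from the median of Mcpt4 r was 0.96, and after removing the group means it was 0.98. The other pairs of proteases had r between 0.88 (Cpa3 and Tpsb2, rho 0.89, permutation p 0.00045 and 0.00107, adjusted 0.0021 and 0.00499, 0.86 without the farthest libraries) and 0.96 (Mcpt4 and Tpsb2, rho 0.98, permutation p 3e-05 and 4e-05, adjusted 0.00042 and 0.00084, 0.92 without them). The summed level of the 4 proteases was 30.5, 28.1, 17.8, 32.7 and 45 scaled RPKM in antibody libraries, against 57.3, 14.7, 49.5, 49.1 and 74.6 in vehicle libraries. The proportion of Mcpt4 to Cma1 was 0.887 ± 0.122 in antibody and 0.893 ± 0.0478 in vehicle libraries (SD, n = 5 each, exact permutation p = 0.817, adjusted over 2 ratios 0.841), and lay between 0.720 and 1.04 in single libraries. Cpa3 to Tpsb2 was 0.675 ± 0.235 in antibody and 0.620 ± 0.138 in vehicle libraries (exact permutation p = 0.841, adjusted 0.841), and lay between 0.329 and 0.944 in single libraries, a wider range than that of the chymases.

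The genes outside the members whose log2 level most resembled the mean of the 7 tested members over the 10 libraries, among 12837 genes ranked, were Mzt2 and Akr1b10 (r = 0.90 each), Ccdc127 (0.90), Zscan18 (0.89), Rnf122 (0.88), Sdr39u1 (0.87), and Atp1b1, Gnas, Dpt and Ogn (0.86 each). Against the mean of the 4 proteases alone, a comparison added after seeing the data, the list was Atp1b1 and Cdkl2 (r = 0.95), Zfp68, Hr and Dpt (0.94), Ppfibp2 and Ogn (0.93), and C1qtnf1, Ccdc127 and Col14a1 (0.92). Dpt (dermatopontin), Ogn (osteoglycin) and Col14a1 are matrix genes of fibroblasts, and they give a description of these libraries without a test. Dcn, a fibroblast proteoglycan, read 527, 460, 347, 526 and 511 scaled RPKM in antibody libraries, against 797, 350, 736, 482 and 529 in vehicle libraries. It was lowest in antibody replicate 3 and vehicle replicate 2, as the proteases were. In vehicle replicate 5, the highest in the summed proteases, it read 529, close to the 527 of antibody replicate 1. The 12 vein wall markers, all tested, lay lower in antibody libraries in 9 cases and higher in 3, with 0 called, and summed to between 6234 and 6862 in antibody and between 6217 and 9464 in vehicle libraries. Among the 3 higher was Pdgfra, at 46.3 ± 4.74 in antibody and 45.8 ± 5.73 scaled RPKM in vehicle libraries. The part of these markers in the protease differences was not tested.

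**Figure D4:**
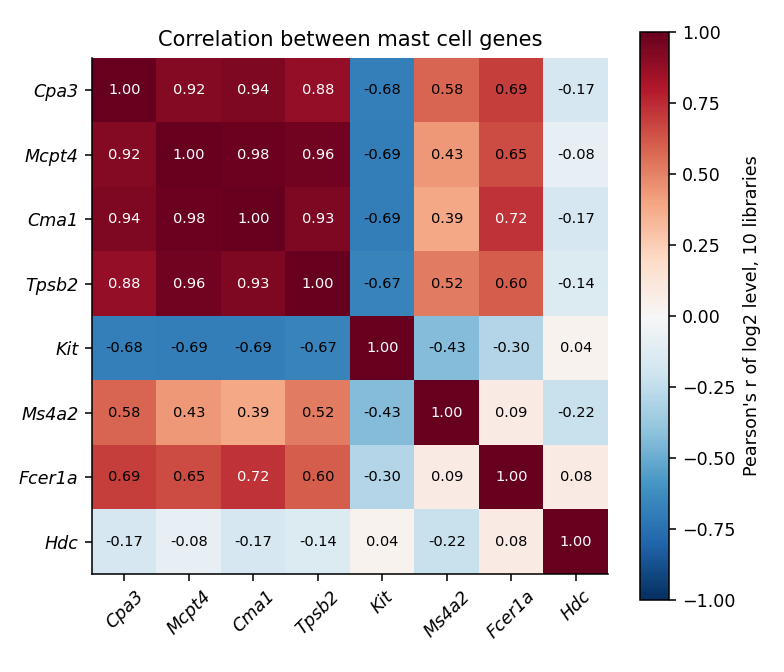
Pearson correlation over the 10 libraries between each pair of the 8 members, on log2(scaled RPKM + 0.5). The 6 pairs among Cpa3, Mcpt4, Cma1 and Tpsb2 lie between 0.88 and 0.98, whereas Hdc lies near 0 with each of them and Kit below 0.

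Kit had its high values in other libraries than the proteases. Kit (ENSMUSG00000005672, chromosome 5, 75574916 to 75656722), the receptor of stem cell factor, read 5.29, 3.22, 3.76, 3.65 and 3.48 scaled RPKM in antibody libraries, against 3.13, 5.64, 3.58, 3.57 and 2.87 in vehicle libraries. It was highest in vehicle replicate 2, the library lowest in the proteases, and next in antibody replicate 1, with the other libraries of both groups close together. Means were 3.88 ± 0.813 in antibody and 3.76 ± 1.09 in vehicle libraries (SD, n = 5 each), and the log2 difference was 0.06 (SE 0.17), with p = 0.690 by exact permutation, p = 0.945 by limma after adjustment and a 95% interval between 0.795- and 1.36-fold. Its correlations with the proteases were negative, with r between -0.69 and -0.67 (permutation p 0.0256 to 0.0332, adjusted 0.0731 to 0.0776). For Mcpt4 r was -0.30 without the 2 libraries farthest from the median of Mcpt4. For Cpa3 rho with Kit was -0.81 (permutation p = 0.00761, adjusted 0.0304), and r was -0.68 with and without the 2 libraries farthest from the median of Cpa3. That choice kept antibody replicate 1, at 5.29 the second highest in Kit, so it cannot show whether r rests on libraries extreme in Kit. Taken alone, the groups differed: r with the proteases lay between -0.21 and 0.16 in antibody libraries. In vehicle libraries, where replicate 2 was extreme in Kit and in the proteases, r lay between -0.998 and -0.95. Kit is also made by melanocytes, interstitial cells of Cajal and blood progenitors. Of melanocyte genes, Tyr, Tyrp1 and Dct had 23, 26 and 43 reads in all libraries together, Pmel 99 and Sox10 152. Mlana had 383 reads and averaged 3.69 ± 0.946 in antibody and 3.52 ± 2.28 scaled RPKM in vehicle libraries, and its part in the level of Kit was not tested. Cd34, also of endothelium and fibroblasts, averaged 23.0 ± 4.58 in antibody and 29.1 ± 5.01 scaled RPKM in vehicle libraries. Kit had 98 to 725 reads a library.

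Hdc (ENSMUSG00000027360, chromosome 2, 126593667 to 126619299) read 11.3, 7.81, 9.99, 2.18 and 3.30 scaled RPKM in antibody libraries, against 2.56, 1.58, 6.07, 4.03 and 3.37 in vehicle libraries. Antibody replicates 1 to 3 were higher than every vehicle library, and antibody replicates 4 and 5 fell among the vehicle libraries. Means were 6.92 ± 4.03 in antibody and 3.52 ± 1.70 in vehicle libraries (SD, n = 5 each), which differ by 0.77 on the log2 scale (SE 0.45), with p = 0.167 by exact permutation, p = 0.758 by limma after adjustment, and an interval between 0.861- and 3.37-fold. With the 4 proteases Hdc had r between -0.17 and -0.08 (adjusted permutation p 0.775 to 0.854), and between -0.64 and -0.50 without the 2 libraries farthest from the median of the protease. Taken alone, with 5 libraries each, the antibody group gave negative and the vehicle group positive values, so the pooled r describes neither.

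Hdc was high in the same 3 libraries as genes of neutrophils. Csf3r, the receptor of granulocyte colony-stimulating factor, read 43.0, 33.2, 34.9, 11.7 and 11.4 scaled RPKM in antibody libraries, against 9.53, 6.13, 15.5, 16.7 and 9.28 in vehicle libraries. S100a8, a calcium-binding protein abundant in neutrophils, read 68.7, 63.6, 108, 13.8 and 15.2 in antibody libraries, against 10.7, 4.86, 29.7, 41.4 and 11.4 in vehicle libraries. Antibody replicates 1 to 3 stood apart in both genes as in Hdc. As a description over all 10 libraries, r with Hdc was 0.95 for Csf3r, 0.94 for S100a8 and 0.93 for S100a9, its partner. It was 0.80 for the general leukocyte gene Ptprc, 0.61 and 0.58 for the T cell genes Cd3e and Cd3d, and 0.52, 0.30 and 0.27 for the macrophage genes Cd68, Csf1r and Adgre1. For the B cell genes Cd79a and Ms4a1 it was 0.39 and -0.11. Over all 10 libraries rho was 0.88 for Csf3r, with a permutation p of 5e-05 for r and 0.00163 for rho (adjusted over 11 leukocyte genes 0.00055 and 0.00737). For S100a8 rho was 0.92 (permutation p 0.00019 and 0.00063, adjusted 0.000697 and 0.00693). These values include antibody replicates 1 to 3, which stand apart. The relation was therefore also tested in the other 7 libraries, a choice made after seeing the data. There r was 0.81 and rho 0.64 for Csf3r (exact permutation p = 0.0292 and 0.139, adjusted over 11 leukocyte genes 0.123 and 0.458), and 0.48 without the 2 farthest libraries. For S100a8 r was 0.84 and rho 0.79 (exact permutation p = 0.0230 and 0.0480, adjusted 0.123 and 0.458), and 0.66 without the 2 farthest. The relation thus did not pass the adjustment outside the 3 libraries. Those were left out for their high values, which narrows the range, so this result does not decide the relation. In the 5 vehicle libraries alone r was 0.90 for Csf3r, 0.87 for S100a8 and 0.86 for S100a9, without a test. The 12 leukocyte markers, 11 of them tested, summed to between 210 and 616 in antibody and between 240 and 395 scaled RPKM in vehicle libraries. Of the 11, 3 had an unadjusted limma p below 0.05, as 6.53% of all genes did, and 0 were called. The part of neutrophil RNA in the Hdc difference was not tested.

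**Figure D5:**
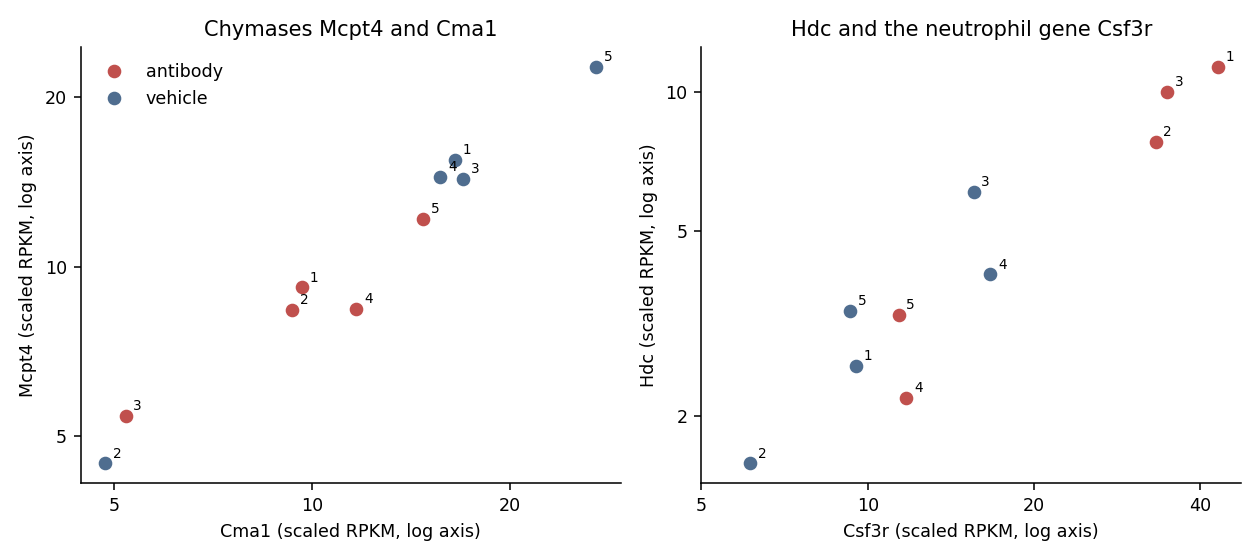
Levels in the 10 libraries (scaled RPKM, log axes) of Mcpt4 and Cma1 and of Hdc and Csf3r, with points for antibody and vehicle libraries numbered by replicate. Vehicle replicate 2 lies lowest in both panels' vehicle libraries, and antibody replicates 1 to 3 lie highest for Hdc and Csf3r but not for Mcpt4 and Cma1.

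The IgE receptor chains rested on few reads. Fcer1a (ENSMUSG00000005339, chromosome 1, 173221284 to 173227214) read 1.07, 0.384, 0.224, 1.09 and 1.28 scaled RPKM in antibody libraries, against 0.461, 0.0933, 1.10, 0.689 and 1.01 in vehicle libraries, from 1 to 25 reads a library. The groups overlapped over nearly their whole range, with vehicle replicate 2 lowest. Means were 0.810 ± 0.472 in antibody and 0.669 ± 0.410 in vehicle libraries (SD, n = 5 each), and the log2 difference was 0.16 (SE 0.33, limma adjusted p = 0.914), with an interval between 0.678- and 1.85-fold, understated at such low levels by the added 0.5. Ms4a2 (ENSMUSG00000024680, chromosome 19, 11615523 to 11623719) read 0.152, 0.239, 0.0796, 0.111 and 0.396 in antibody libraries, against 0.618, 0.0662, 0.0311, 0.275 and 0.159 in vehicle libraries. Vehicle libraries held both the highest value (replicate 1) and the lowest (replicate 3), on either side of all antibody libraries. With 110 reads in all Ms4a2 reached the required level in 4 libraries and was not tested in the fit, and an exact permutation test gave p = 0.897. Fcer1a had r between 0.60 and 0.72 with the proteases (permutation p 0.0193 to 0.0680, adjusted 0.0731 to 0.136), and between -0.10 and 0.42 without the 2 farthest libraries. Ms4a2 had r between 0.39 and 0.58 with them (adjusted permutation p 0.136 to 0.396). None of these relations of the receptor chains passed the adjustment.

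By level per length, averaged over all libraries, the order was Cma1 (13.2 scaled RPKM), Mcpt4 (11.5), Tpsb2 (9.25), Cpa3 (6.02), Hdc (5.22), Kit (3.82), Fcer1a (0.740) and Ms4a2 (0.213). Cma1 exceeded Mcpt4 in 9 of 10 libraries, and the steps to Tpsb2 and to Cpa3 held in 10 of 10. Cpa3 exceeded Hdc in 7 libraries and Hdc exceeded Kit in 6, so those neighbours did not differ beyond their spread. Their order also depended on the group: in antibody libraries the mean of Hdc (6.92) stood above that of Cpa3 (4.87), and in vehicle libraries the mean of Kit (3.76) stood above that of Hdc (3.52). The coefficient of variation over libraries was 46.3% to 49.8% for the proteases, 23.9% for Kit and 65.5% for Hdc.

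Other genes of mast cells were read against the members. Of 24 listed, 17 were tested, of which 11 lay lower and 6 higher in antibody veins, with a median log2 difference of -0.10. Of the 17, 1 had an unadjusted limma p below 0.05, beside 6.53% of all genes, and 0 were called. Rab27b, which moves granules to the membrane, averaged 0.784 ± 0.153 in antibody and 1.10 ± 0.224 scaled RPKM in vehicle libraries, and Slc18a2, which loads amines into granules, 0.243 ± 0.114 in antibody and 0.400 ± 0.120 in vehicle libraries (SD, n = 5 each, limma adjusted p = 0.739 for both). Mitf and Gata2, transcription factors of mast cells and of other cells, averaged 7.42 and 3.15 scaled RPKM in antibody and 7.54 and 3.63 in vehicle libraries. The 6 genes that lay higher were Srgn, Cysltr2, Slc45a3, Il1rl1, Hpgds and Adora3. Of these Srgn averaged 31.6 ± 14.7 in antibody and 24.5 ± 7.78 scaled RPKM in vehicle libraries (limma adjusted p = 0.848). The proteases Mcpt1 and Mcpt2 of mucosal mast cells had 9 and 24 reads over all libraries. The basophil proteases Mcpt8 and Prss34 had 15 and 63, beside 2012 reads of Mcpt4, and were not tested. Of 7 basophil markers 4 were tested (Itga2b, Gata2, Cd200r3 and Il3ra), all lower in antibody libraries, with none called. Gata2 and Cd200r3 were also on the mast cell list, and 51.2% of all genes lay lower.

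Genes downstream of the IgE receptor, shared by many leukocytes, lay mostly higher in antibody veins: 12 of 16 tested higher and 4 lower, a median log2 difference of 0.21. Of the 16, 1 had an unadjusted limma p below 0.05, beside 6.53% of all genes, and 0 were called. Syk, the kinase that the receptor recruits, averaged 16 ± 3.57 in antibody and 11.8 ± 1.07 scaled RPKM in vehicle libraries (limma adjusted p = 0.739), and Btk, a kinase after it, 5.32 ± 1.27 in antibody and 4.03 ± 0.353 in vehicle libraries. The general leukocyte gene Ptprc lay higher as well, at 13.2 ± 4.08 in antibody and 8.13 ± 1.86 in vehicle libraries. The summed protease level divided by Ptprc was 1.65, 2.20, 1.15, 2.93 and 5.75 in antibody libraries, against 5.75, 2.82, 5.91, 5.18 and 9.74 in vehicle libraries. In this ratio vehicle replicates 2 and 4 lay within the antibody range, and vehicle replicate 1 lay just above it. Antibody replicates 4 and 5 lay within the vehicle range.

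Among factors that feed or call mast cells, 8 of 12 were tested, 4 lower and 4 higher, with a median log2 difference of -0.000259 and 0 called. Cxcl12, a chemokine for Cxcr4-bearing cells, averaged 47.1 ± 13.6 in antibody and 26.1 ± 8.44 scaled RPKM in vehicle libraries (log2 difference 0.84, SE 0.24, limma adjusted p = 0.739). Il33, an alarmin that acts on mast cells through Il1rl1, averaged 19.1 ± 5.13 in antibody and 13.2 ± 2.40 in vehicle libraries (limma adjusted p = 0.739). Kitl, the ligand of Kit, averaged 5.93 ± 1.14 in antibody and 6.18 ± 0.626 in vehicle libraries. The cytokines Il3 and Il9 had 3 and 2 reads in all. For the histamine made by Hdc, the receptor Hrh2 averaged 1.16 ± 0.412 in antibody and 0.501 ± 0.287 scaled RPKM in vehicle libraries (log2 difference 0.75, SE 0.23, limma adjusted p = 0.739), and all 3 tested genes of 6 on that list lay higher, with none called. Chymase and Ace both make angiotensin II: Ace averaged 57.8 ± 15.9 in antibody and 67.7 ± 9.46 in vehicle libraries, and of 6 tested genes of that list 5 lay lower, with 0 called.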

How the data were processed

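RNA of the outflow vein was sequenced in 10 libraries, 5 antibody and 5 vehicle, after library synthesis with a TruSeq V2 kit (0.5 µg of RNA in), per the labels' protocols. The deposited table holds RPKM (reads per kilobase of gene and per library total) that the authors computed per gene and library, with averages per group that were not used. The build is mm10, per the submitters' processing notes. Aligner, counter, annotation and strandedness: not given in the sources used here. Members carry the deposited gene names. Of 43346 gene IDs, 42462 took their symbol from the reference table by ID and the rest the deposited name.

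Whole reads were recovered from the RPKM with the deposited gene length plus 1, taking the smallest step of each library as 1 read (100% of values whole within 0.001), and their sums are the totals given, and libraries within a group differed beyond sampling noise. RPKM were scaled by trimmed means of M values. Genes were kept with 0.513 CPM (10 reads in the median library) in at least 5 libraries and 15 reads in all. Since RPKM are not counts, log2(scaled RPKM + 0.5) was tested by limma (version 3.58.1, R 4.3.3) with a variance trend, adjusted by Benjamini-Hochberg over 17859 genes, beside exact two-sided permutation tests over 252 assignments (smallest p 0.00794). Limma was tested on simulated counts with known differences, whose spread was set and not taken from these libraries. The permutation test was checked on fixed values of fully separated groups. Correlation p-values used 1e+05 permutations. Errors are SDs over libraries, and the floor of 3 reads covers counting error only. Groups came from the labels, where no batch is given. Alternatives were another or no scaling, other filters and pseudocounts, limma-voom on recovered reads with and without quality weights, the replicate number as a block, and each library left out.

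The members and gene lists were chosen with earlier results of these data known. Named genes were the 8 members, up to 4 genes of each list with the smallest limma p, those of a list with few reads, and the 10 genes most like the members in log2 level among those averaging at least 1 on the log2 CPM scale, predicted symbols passed over. Genes named beyond these, among them Mitf, Gata2, Kitl, Ptprc and Dcn, were chosen after their values were seen.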

Additional observations from a re-analysis of the deposited data

Results flagged for a closer look

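Of 16 groups of 5 libraries screened (8 genes in each treatment), 3 held a library farther from the others than Dixon's 95% limit of 0.71 for the gap over the range allows, and chance alone would pick about 1 group in 20. Kit stood out in antibody replicate 1, at 5.29 scaled RPKM, with the other antibody libraries between 3.22 and 3.76 (gap over range 0.737). Kit also stood out in vehicle replicate 2, at 5.64, with the other vehicle libraries between 2.87 and 3.58 (0.743). Cpa3 stood out in the same vehicle replicate 2, at 1.69, with the other vehicle libraries between 7.88 and 10.2 (0.729). Kit divided by Mcpt4 was 0.576, 0.384, 0.694, 0.434 and 0.287 in antibody libraries, against 0.202, 1.26, 0.250, 0.247 and 0.127 in vehicle libraries, so that the receptor exceeded the chymase in vehicle replicate 2 alone.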

How the results depend on the processing

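No member was called under any of 19 alternatives. Among all genes, 1 (the predicted Gm27598) was called without a filter on low values and 0 under the others. The median log2 difference of the tested members was -0.45 with all libraries and lay between -0.86 (without vehicle replicate 2) and -0.17 (without antibody replicate 3) with 1 library left out. Cpa3, Mcpt4, Cma1 and Tpsb2 kept their negative sign and Hdc its positive sign under all alternatives. With 1 library left out, Kit lay between -0.049 (without antibody replicate 1) and 0.20, was -0.020 without vehicle replicate 5, and Fcer1a lay between -0.062 and 0.35, the lowest without vehicle replicate 2. Fcer1a was 0.54 by limma-voom and 0.28 at a pseudocount of 0.1, against 0.16, and Cpa3 was -0.27 by limma-voom, against -0.45. The log2 ratio of Mcpt4 to Cma1, -0.02 between groups, lay between -0.081 and 0.052 (without antibody replicate 4), and was 0.00363 without antibody replicate 5. That of Cpa3 to Tpsb2, 0.07, lay between -0.075 (without antibody replicate 2) and 0.31, and was -0.0059 without antibody replicate 4, -0.0074 without vehicle replicate 5 and -0.036 without vehicle replicate 2. The cause was not tested. Same-numbered libraries did not deviate together (correlations between -0.10 and 0.35, with 1 of 5 numbers best matched by itself), and with the replicate number as a block 0 members and 0 genes were called, with a median of -0.45. Single members did differ under the block: the SE of Tpsb2 fell from 0.35 to 0.22 and that of Mcpt4 from 0.36 to 0.29. The SE of Kit alone rose, from 0.17 to 0.19. Fcer1a has no value under the stricter filter and Ms4a2 only without a filter. Depth limits both: Ms4a2 had 110 reads and Fcer1a 125 over all libraries, and in the shallowest library Cpa3 had 12.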

Other observations

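Genes most like Hdc and Kit were sought after seeing the data, over the same 10 libraries and 12837 genes, and are given as a description. The 10 most like Hdc had r between 0.94 and 0.97 and were Il1r2 (0.97), a decoy receptor for interleukin-1 made by neutrophils, Zfp263, Nfkbie, Csf3r, Nlrp3, Nfkb2, Tank, Smox, Mxd1 and Traf1. Il1r2 averaged 8.92 scaled RPKM in antibody and 2.91 in vehicle libraries (limma log2 difference 1.22, adjusted p = 0.739). Hdc divided by Mcpt4 was 1.23, 0.932, 1.84, 0.260 and 0.272 in antibody libraries, against 0.165, 0.353, 0.424, 0.279 and 0.149 in vehicle libraries, with antibody replicates 1 to 3 above all others.

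The genes most like Kit were Osbpl9 (r = 0.94), Ttpal (0.91), Mrtfb (0.91), Cep120 (0.90), Pcbp2 (0.89), Iqsec1 (0.89), Cherp (0.88), Med13l (0.88), Epas1 (0.88) and Frmd5 (0.87). Eosinophil genes, another granulocyte list, had 5 of 8 tested, 1 lower and 4 higher in antibody libraries, with 0 called: Ccr3, the eotaxin receptor, averaged 0.834 ± 0.424 in antibody and 0.440 ± 0.281 scaled RPKM in vehicle libraries, and Ear2, a ribonuclease, 0.772 ± 0.555 in antibody and 1.76 ± 1.10 in vehicle libraries (SD, n = 5 each, limma adjusted p = 0.739 for both). Among genes of other Kit-bearing cells, 6 of 10 were tested, 3 on each side, with 0 called, and Ano1, a chloride channel of interstitial cells of Cajal and smooth muscle, averaged 2.66 ± 0.936 in antibody and 4.54 ± 1.42 in vehicle libraries (limma adjusted p = 0.739). Skin markers summed to between 0.700 and 0.942 scaled RPKM in antibody and between 0.739 and 2.23 in vehicle libraries, and adipocyte markers to between 78.7 and 565 against between 159 and 230.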
